A study of Mus musculus with 6 samples.

Results

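Small nucleolar RNA host genes are transcribed into spliced long noncoding RNAs whose introns carry small nucleolar RNAs (snoRNAs), the guides for chemical modification and cleavage of ribosomal RNA. Rows were taken from the deposited table of 54232 genes by gene symbol for Gas5, Snhg1, Snhg3, Snhg4, Snhg5, Snhg6, Snhg8, Snhg12, Snhg15 and Zfas1. Of these 10 genes, 9 had a row under their symbol. Zfas1 had none, and its values come from the row whose Ensembl identifier the reference pairs with Zfas1. RNA sequencing gave 3 libraries from mouse cells given the solvent DMSO and 3 from cells given C89, a compound known here by its code name alone, all taken at 8 h. The labels call the cells female germline stem cells, which are dividing germ cells grown from the ovary, and do not state strain, age, dose or whether replicates were separate cultures. The p-values here thus rest on library-to-library spread, part or all of which may be technical.

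The spliced host RNA has little coding potential. Once the introns are removed and trimmed to snoRNAs, it is exported and engaged by ribosomes. Many hosts, among them Gas5, begin with a run of pyrimidines at the 5′ end, the terminal oligopyrimidine start they share with ribosomal protein mRNAs and through which mTOR controls translation. Early stop codons make several of them substrates of nonsense-mediated decay, so that Gas5 is known to build up when its translation stops or cells cease growing.

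Library size and cell type markers are described first. Reads assigned to genes numbered 17826569 to 21763459 in DMSO libraries and 7772060 to 17938295 in C89 libraries. C89 libraries 2 and 3 resembled each other closely: 0.686% of genes differed by more than counting noise, while other same-group pairs gave 25.8% to 48.7%. They were kept as 2 libraries, and the value with both summed is given for each named gene that then lost its call. Of 10 germ cell markers, Dazl, Dppa3, Sall4, Nanos3 and Tfap2c had no read in any library, Pou5f1 and Prdm14 had a mean under 1 normalized count, and Ddx4 lay between 0 and 6.20. The remaining germ cell markers were detected: Zbtb16 fell from 39.3 ± 8.46 to 16.8 ± 5.95 (SD, n = 3 each; limma adjusted p = 0.0195), and Ifitm3 was at 54.7, 74.1 and 1.59 in DMSO and 15.9, 12.2 and 15.3 in C89 libraries. The summed level of 10 mast cell markers was 52727 to 64105 in DMSO and 89765 to 100550 in C89 libraries, and 5 of the 7 tested were called higher. Most of that sum came from Cpa3, Kit and Gata2, at 6710 to 49567 normalized counts. Of the other markers in this list, Ms4a2, a subunit of the IgE receptor, had no read. The receptor subunit Fcer1a and the tryptase Tpsb2 had a mean under 1. The tryptase Tpsab1 was at 1.91 in DMSO and 6.86 in C89 libraries on average. Hdc rose from 80.7 ± 35.9 to 349 ± 94.4 and Srgn from 4284 ± 864 to 5627 ± 250 (SD, n = 3 each; limma adjusted p = 3.13e-04 and 0.0314). Cma1 was at 28.2 in DMSO and 44.5 in C89 libraries on average (limma adjusted p = 0.102). The summed level of 10 fibroblast markers was 1283, 2445 and 159 in the DMSO libraries and 72.6, 102 and 157 in the C89 libraries. Of the 9 tested, Fn1, Pdgfra and Col1a2 were called lower and 0 higher, against 13.6% and 12.5% of all genes. Most of the mean DMSO sum came from Fn1 and Dcn. Fn1 fell from 620 ± 587 to 13.1 ± 4.86 (SD, n = 3 each; limma adjusted p = 0.00133). Col3a1 had its highest value in the third C89 library. The summed level of 5 macrophage markers was 1799 to 2700.3 in DMSO and 3711 to 3986 in C89 libraries. Of these, Adgre1 rose 2.37-fold (limma adjusted p = 1.24e-05), and Csf1r had a mean under 1. Cd68 was at 1313 ± 331 in DMSO and 1711 ± 246 in C89 libraries (SD, n = 3 each; limma adjusted p = 0.0891). Lyz2 and C1qa went the other way, at 18.6 and 2.39 in DMSO and 4.15 and 0 in C89 libraries on average. Neither was called (limma adjusted p = 0.452 and 0.472), and most of their reads lay in the second DMSO library. The summed level of the 10 germ cell markers was 90.0, 125 and 41.4 in the DMSO libraries. The third DMSO library was lowest in its group for the germ cell, mast cell, fibroblast and macrophage sums. It also held the lowest value of 5 of the 9 host transcripts tested. These were Gas5, Snhg4, Snhg6, Snhg8 and Zfas1, all called higher in C89 libraries below. For Zfas1 it was nearly level with the second DMSO library. It was the highest DMSO library for Snhg1, Snhg12 and Snhg15. The part of these cell type markers in the host values was not tested, and in bulk libraries fewer cells of a type and less RNA per cell cannot be told apart.

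Sequence around the annotated start is shown to let the terminal oligopyrimidine feature be read directly. The windows run 5′ to 3′ from 40 bases before the start to 20 bases from it, from RefSeq on GRCm38.p6. The first 4 windows hold the pyrimidine start, and the other hosts with a window are shown for comparison. The upstream start of Gas5, not printed, holds none of the marked words. Capitals at the start mark a C followed by at least 4 pyrimidines that begins within 5 bases of the annotated start. Capitals upstream of the start mark TATA beginning 20 to 36 bases before it. In Snhg15 the capitals lie downstream of the start and mark CACGTG, a word bound by basic helix-loop-helix factors.
Gas5, downstream start, chr1:161035126-161035185, plus strand: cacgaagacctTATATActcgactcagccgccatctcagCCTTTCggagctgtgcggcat
Snhg8, chr3:123508317-123508376, minus strand: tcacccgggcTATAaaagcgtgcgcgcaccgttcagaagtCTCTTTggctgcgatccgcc
Snhg12, chr4:132308638-132308697, plus strand: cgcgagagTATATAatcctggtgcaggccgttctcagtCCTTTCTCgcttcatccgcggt
Snhg3, chr4:132353667-132353726, minus strand: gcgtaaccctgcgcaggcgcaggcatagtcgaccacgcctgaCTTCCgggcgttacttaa
Snhg1, chr19:8723447-8723506, plus strand: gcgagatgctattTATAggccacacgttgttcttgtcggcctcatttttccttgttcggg
Snhg5, chr9:88522878-88522937, minus strand: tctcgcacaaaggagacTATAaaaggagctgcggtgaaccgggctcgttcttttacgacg
Zfas1, chr2:167062894-167062953, plus strand: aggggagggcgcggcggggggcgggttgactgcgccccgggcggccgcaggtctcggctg
Snhg15, chr11:6528741-6528800, minus strand: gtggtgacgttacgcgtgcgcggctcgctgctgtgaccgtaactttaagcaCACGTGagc

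Of the 10 hosts, 8 had a window in the RefSeq promoter table. The pyrimidine start, read on the strand of the gene, was found in 4 of the 8, which were Gas5, Snhg3, Snhg8 and Snhg12, and in 21.2% of all genes in the table. TATA at that distance, also on the strand of the gene, was found in 5 of the 8 and in 6.22% of all genes. The TATA search was chosen after the sequences had been seen. Both features together occurred in 3 of the 8, Gas5, Snhg8 and Snhg12, and in 1.20% of all genes. CACGTG, which reads the same on both strands, was found in Snhg15 alone of the 8 over the whole 300 base windows, and in 8.09% of all genes.

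The comparison of C89 with DMSO asks which host transcripts changed within 8 h of exposure to the compound, in a study whose title concerns autophagy and PI3K-AKT signalling. Gas5, Snhg4, Snhg6, Snhg8 and Zfas1 rose in C89 libraries, while Snhg1, Snhg5, Snhg12 and Snhg15 did not pass the test. Snhg3 was close to unread. Values are normalized counts, that is, reads divided by 1 size factor per library, and log2 fold changes are C89 over DMSO on the log2(value + 1) scale with limma p-values adjusted over all 18954 genes with a mean of at least 1. Of the 9 hosts that passed this filter, 5 were called higher at an adjusted p under 0.05 and 0 lower, and among the 8 found by symbol 4 were higher. Without adjustment, 6 of the 9 had a limma p under 0.05, as did 7076 of all 18954 genes. That share applies to each unadjusted count from this same fit below. On the recovered reads edgeR and DESeq2 each called 4 higher and 0 lower, against 24.5% and 28.9% of all genes called by them in either direction. Over all genes tested limma called 12.5% higher and 13.6% lower, 26.1% together. The median log2 fold change was 0.42 for the 9 hosts and -0.03 for all genes. The authors' deposited table, with an adjusted p for these 9 hosts, holds 4 of them under 0.05, all higher, against 14.2% of its genes called higher and 15.0% lower, 29.2% together.

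**Figure D1:**
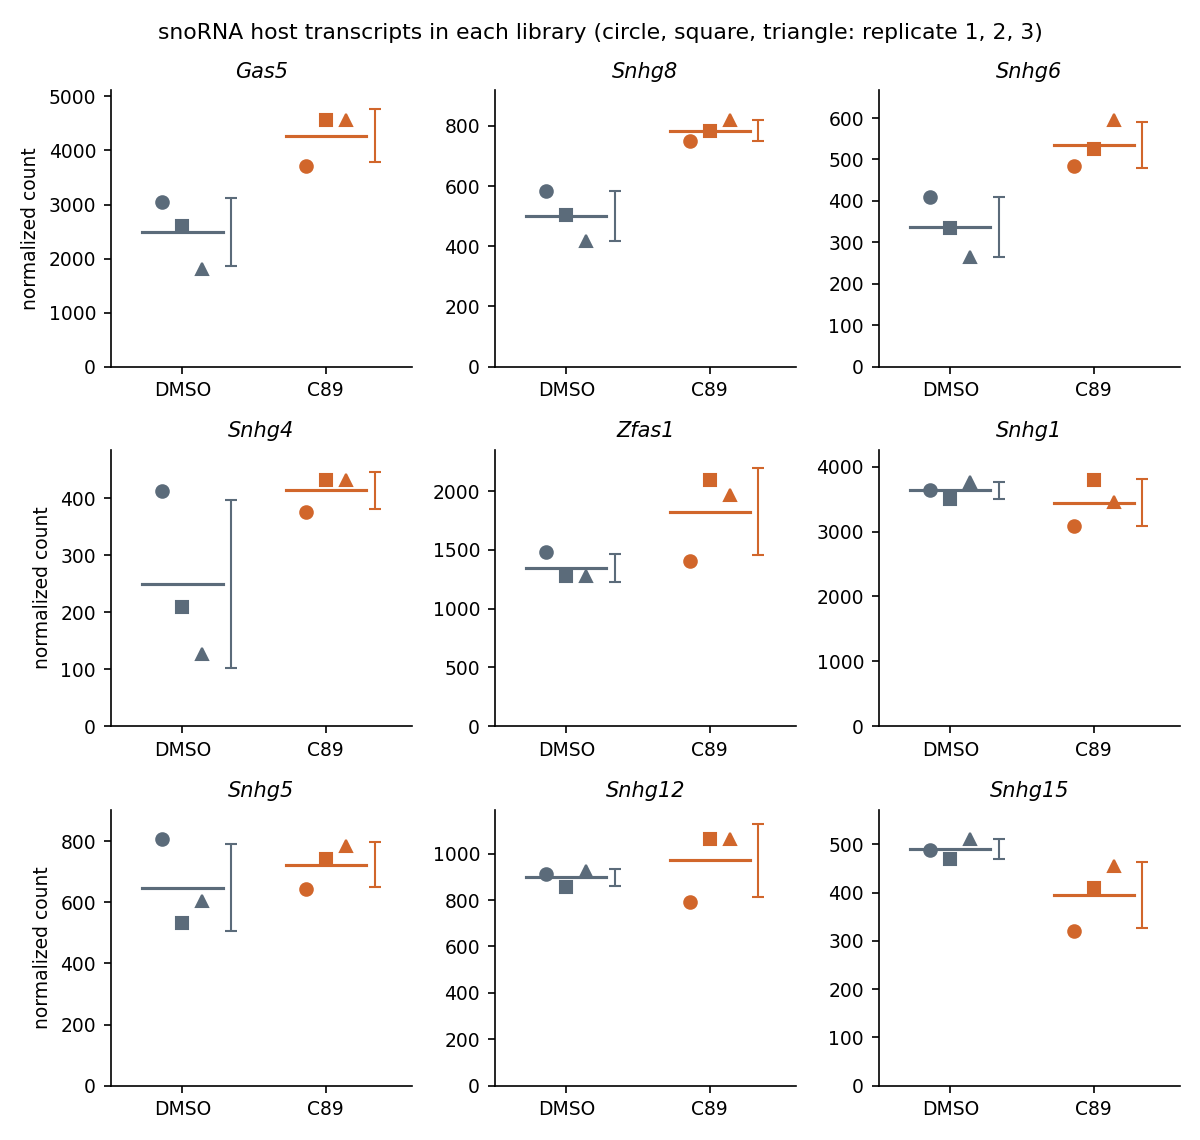
Normalized count of each of the 9 tested host transcripts (vertical axis, from 0) in the 3 DMSO and 3 C89 libraries; horizontal lines are group means and bars 1 SD. For Gas5, Snhg8 and Snhg6 each C89 library lies above each DMSO library, for Snhg15 each lies below, and the groups of the other hosts overlap.

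Gas5 (ENSMUSG00000053332), growth arrest specific 5, is the host best known for its link to growth state and carries 9 loci annotated as snoRNAs. Its normalized counts were 3053, 2599 and 1812 in the DMSO libraries and 3709, 4556 and 4562 in the C89 libraries. Each C89 library was above each DMSO library, and the third DMSO library was the lowest. The group means were 2488 ± 628 and 4276 ± 491 (SD, n = 3 each), a 1.72-fold difference (log2 fold change 0.81, SE 0.16, 95% interval 0.47 to 1.15, limma adjusted p = 0.00266). Dropping the second DMSO library ended the call (log2 fold change 0.86, adjusted p = 0.0677), and it stood without any other library (adjusted p from 0.00211 to 0.0488).

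Snhg8 (ENSMUSG00000104960), which carries Snora24, read 583, 504 and 417 in DMSO and 751, 782 and 819 in C89 libraries. The groups did not overlap. The difference was 1.56-fold, from 502 ± 83.2 to 784 ± 34.1 (SD, n = 3 each), with limma giving 0.66 on the log2 scale (SE 0.12, adjusted p = 0.00205). It was the 1 host whose call stood whichever library was left out, with log2 fold changes of 0.53 to 0.77 and adjusted p from 0.00153 to 0.0471.

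Snhg6 (ENSMUSG00000098234), the host of Snord87, read 410.1, 335 and 265 in DMSO and 484, 526 and 595 in C89 libraries. Here too the groups were apart and the third DMSO library was the lowest. The means of 337 ± 72.5 and 535 ± 56.2 (SD, n = 3 each) gave a log2 fold change of 0.68 (SE 0.15, limma adjusted p = 0.0053). Leaving out DMSO library 2 or C89 library 3 ended the call (adjusted p = 0.0827 and 0.0628). Groups without overlap and C89 higher, as in Gas5, Snhg8 and Snhg6, made up 3 of the 9 hosts and 19.9% of all genes tested. Groups were apart in either direction for 4 hosts and for 40.9% of all genes.

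Snhg4 (ENSMUSG00000097769) read 413, 209 and 127 in DMSO and 376, 433 and 433 in C89 libraries. The first DMSO library lay within the C89 range and the other DMSO libraries far below it. The means were 249.9 ± 147 and 414 ± 32.7 (SD, n = 3 each), or 0.89 on the log2 scale (SE 0.30, 95% interval 0.24 to 1.54, limma adjusted p = 0.0435). This rise rests on single libraries. The log2 fold change was 0.49 without the third DMSO library (adjusted p = 0.218) and 1.34 without the first (0.00158), and the call was also lost without the second DMSO library or any 1 C89 library (0.101 to 0.284). It was also lost with C89 libraries 2 and 3 summed (adjusted p = 0.145) and with edgeR (0.127) and DESeq2 (0.281) on the recovered reads, and the authors' deposited table gives an adjusted p of 0.278.

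Zfas1 (ENSMUSG00000074578), an antisense transcript at the 5′ end of Znfx1 that carries Snord12, read 1481, 1276 and 1275 in DMSO and 1407, 2099 and 1971 in C89 libraries. The first C89 library lay within the DMSO range, and C89 libraries 2 and 3, which are nearly alike, were well above it. The means were 1344 ± 119 and 1826 ± 368 (SD, n = 3 each), or 0.42 on the log2 scale (SE 0.13, limma adjusted p = 0.0342). With those C89 libraries summed the adjusted p was 0.168. It was 0.227 and 0.147 when DMSO library 2 or 3 was dropped, 0.195 and 0.191 when C89 library 2 or 3 was dropped, and 0.143 when libraries were scaled by total reads.

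Snhg1 (ENSMUSG00000108414), which carries 8 annotated snoRNAs, read 3634, 3507 and 3769 in DMSO and 3082, 3800.2 and 3449 in C89 libraries. The groups overlapped. The log2 fold change was -0.08 (95% interval -0.28 to 0.12, limma adjusted p = 0.552). The interval leaves out a difference of the size of that in Gas5. Alg1, Ndufaf6 and Alg6 had the level pattern most like that of Snhg1 (Pearson r of 0.99, 0.98 and 0.98 on the log2 scale). They had the highest r over the 6 libraries among the 9658 other genes with a mean of at least 100. With so few libraries and so many genes, r this high can come from the picking alone.

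Snhg5 (ENSMUSG00000097195), which carries Snord50a and Snord50b, read 807, 531 and 606 in DMSO and 642, 742 and 785 in C89 libraries. Its highest value was in the first DMSO library, and its log2 fold change was 0.17 (95% interval -0.13 to 0.48, limma adjusted p = 0.402). Snhg12 (ENSMUSG00000086290), with 4 annotated snoRNAs, read 914, 857 and 925 in DMSO and 791, 1061 and 1063 in C89 libraries. C89 libraries 2 and 3 were above the DMSO range and library 1 below it. Its log2 fold change was 0.10 (95% interval -0.15 to 0.35, limma adjusted p = 0.58), and -0.05 with scaling by total reads (0.799).

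Snhg15 (ENSMUSG00000085156), the host of Snora9 and the 1 tested host with lower values in each C89 library, read 489, 469 and 511 in DMSO and 322, 411 and 455 in C89 libraries. The groups did not overlap, as in 21.0% of all genes tested with C89 lower. The means were 489.7 ± 20.9 and 396 ± 67.9 (SD, n = 3 each), or -0.32 on the log2 scale (SE 0.13, 95% interval -0.60 to -0.04, limma adjusted p = 0.0892), which misses the threshold. With scaling by total reads the log2 fold change was -0.47 (adjusted p = 0.0169). Under that scaling 3 hosts were called higher (Gas5, Snhg6 and Snhg8, against 7.98% of all genes) and 1 lower (Snhg15, against 21.6% of all genes).

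Snhg3 (ENSMUSG00000085241), the host of Snora73a and Snora73b, had 0 reads among 57439653 in the DMSO libraries and 1 read among 38189999 in the C89 libraries, below the floor of 3 reads used here for counting error. In the GENCODE annotation it overlaps Rcc1 on the same strand, and how the authors assigned reads shared by overlapping genes is not given in the sources used here. Rcc1, which encodes the nucleotide exchange factor of the GTPase Ran, was at 2229 ± 165 in DMSO and 2500.1 ± 57.0 in C89 libraries (SD, n = 3 each; log2 fold change 0.17, limma adjusted p = 0.172).

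**Figure D2:**
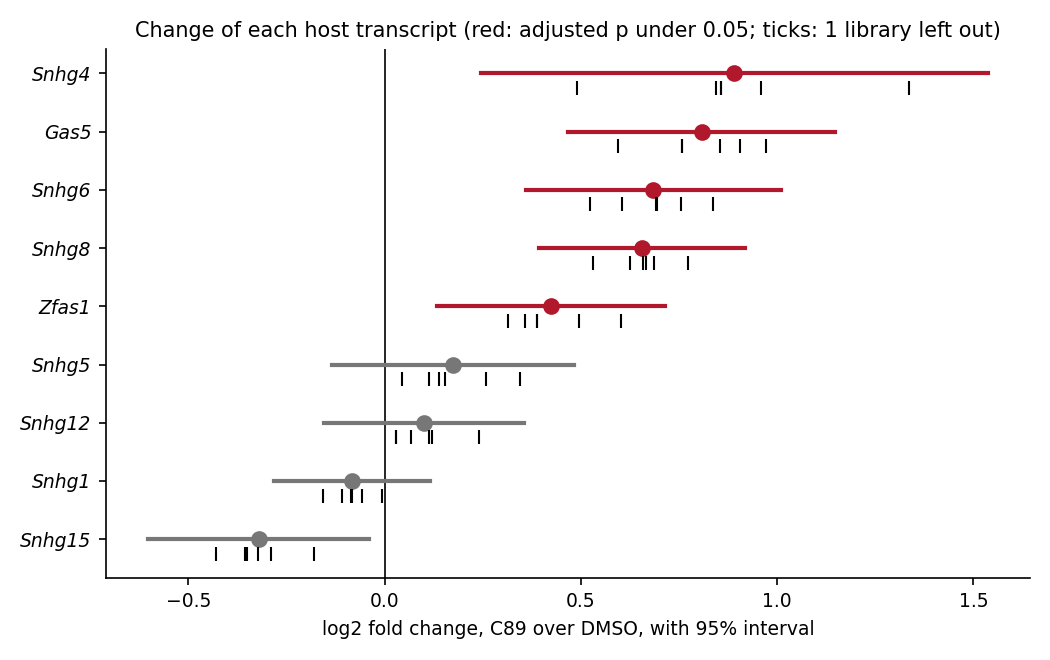
Log2 fold change, C89 over DMSO (horizontal axis), of the 9 tested hosts with 95% intervals; red marks hosts with an adjusted p under 0.05 and black ticks the values with 1 library left out. Snhg4 has the widest interval, 0.24 to 1.54, and the ticks of all 9 hosts stay on the side of 0 of their full value.

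The difference between hosts can be read within a library, where no scaling enters. The ratio of Gas5 to Snhg1 normalized counts was 0.84, 0.741 and 0.481 in DMSO libraries and 1.20, 1.20 and 1.32 in C89 libraries. All C89 libraries thus held more Gas5 than Snhg1 reads and all DMSO libraries fewer (means 0.687 ± 0.186 and 1.24 ± 0.0703, SD, n = 3 each; exact permutation test, two-sided p = 0.1, the smallest that 3 against 3 libraries allow). The ratio of Snhg8 to Snhg1 was 0.161, 0.144 and 0.111 in DMSO and 0.244, 0.206 and 0.237 in C89 libraries. That of Snhg6 to Snhg1 was 0.113, 0.0954 and 0.0703 in DMSO and 0.157, 0.138 and 0.172 in C89 libraries. Both ratios were apart between the groups, each with the same p of 0.1 by the exact permutation test. These 3 pairs were chosen after the values had been seen.

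Hosts with a similar snoRNA load had unlike values. GENCODE places 31 snoRNA loci inside the 9 hosts it annotates here, which leave out Snhg4. Gas5 and Snhg1, with 9 and 8 loci, had log2 fold changes of 0.81 and -0.08. Snhg6, Snhg8 and Snhg15, with 1 each, had 0.68, 0.66 and -0.32. The snoRNAs at these loci were hardly counted. Over all rows annotated as snoRNA in GENCODE, 266 of 1507 had reads, 4602 reads in all 6 libraries together. Of the 33 rows at these loci (2 loci have a pair of rows), 32 had no read, and Snord87 in Snhg6 was covered by 6, 6 and 0 reads under DMSO and by 9, 4 and 11 under C89. The data thus hold host RNA and not the level of these snoRNAs. Whether the mRNA libraries or the assignment of reads shared with the host left these rows empty was not tested.

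Neighbouring genes were read because the labels name a directional library kit beside another, while the use of strand in counting is not stated. At the Gas5 locus the zinc finger gene Zbtb37 lies on the opposite strand and overlaps it, with starts 427 bases apart in GENCODE. Zbtb37 read 249, 250.2 and 357 in DMSO and 170.1, 138 and 141 in C89 libraries. The groups did not overlap, and Zbtb37 fell (285 ± 61.9 to 149.9 ± 17.5, SD, n = 3 each; limma adjusted p = 0.0018 for a log2 fold change of -0.91, SE 0.16) while Gas5 rose. Slc3a2, the heavy chain of amino acid transporters, starts 106 bases from Snhg1 on the other strand and had a log2 fold change of 0.13 (limma adjusted p = 0.301; -0.02 with scaling by total reads). Znfx1, opposite Zfas1, had -0.13 (adjusted p = 0.556). Gm17300, opposite Snhg3, had 0.67 (adjusted p = 0.0925), and Mcmdc2, opposite Snhg6, had 0.83 from at most 9 reads a library (adjusted p = 0.493). Snhg4 is not in the GENCODE annotation used here, so its neighbours were not searched.

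**Figure D3:**
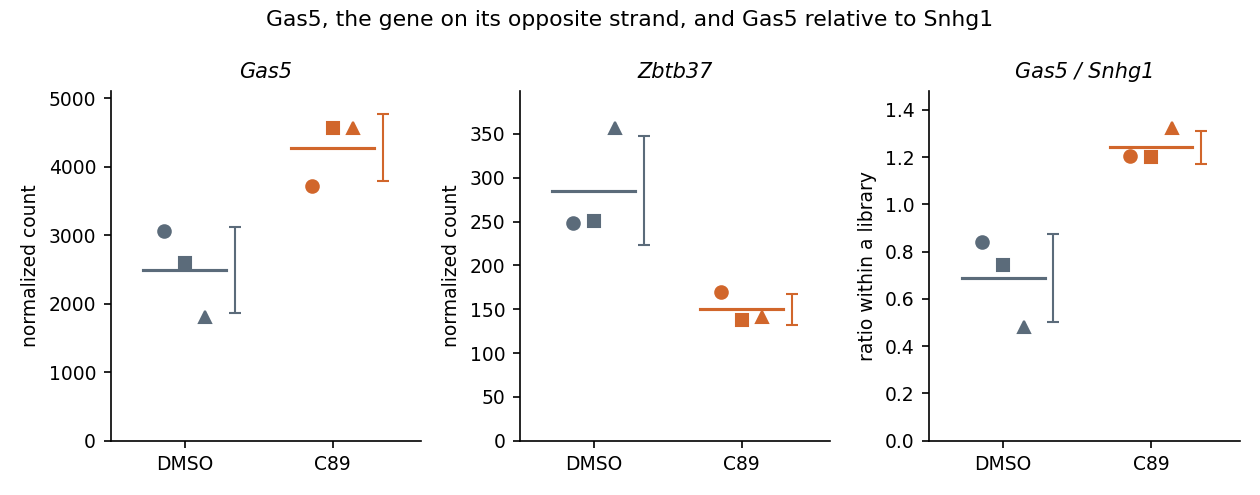
Normalized counts of Gas5 and of Zbtb37 on the opposite strand, and the ratio of Gas5 to Snhg1 within each library (vertical axes, from 0); lines are group means and bars 1 SD. Gas5 is higher and Zbtb37 lower in each C89 library than in any DMSO library, and the ratio is above 1 in C89 libraries alone.

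Other genes that carry snoRNAs mostly moved upward or not at all. Of 7 further long noncoding hosts tested by limma, 3 rose and 0 fell (median log2 fold change 0.30), against 12.5% and 13.6% of all genes. Dancr read 276, 127 and 121 in DMSO and 276, 285 and 302 in C89 libraries, with the first DMSO library just under the lowest C89 library (log2 fold change 0.82, limma adjusted p = 0.0271). Epb41l4aos rose from 226 ± 48.1 to 316 ± 24.9 (SD, n = 3 each; adjusted p = 0.0275). Snhg14, in a row that the table calls Ipw, rose from 10.1 ± 2.26 to 25.6 ± 4.05 normalized counts (adjusted p = 0.0179). None of the 3 was called by limma when DMSO library 2, DMSO library 3 or C89 library 3 was dropped, where unadjusted p was under 0.05 for 1, 2 and 3 of the 7. The share of all genes under that unadjusted p in these fits is not given here. A single one of the 3 was called when C89 library 1 or 2 was dropped. With C89 libraries 2 and 3 summed the adjusted p was 0.0974 for Dancr and 0.0936 for Epb41l4aos. With all libraries, edgeR and DESeq2 called 2 each.

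Protein-coding genes with snoRNAs in their introns rose in 27 of 36 cases and fell in 0 (median 0.44), against 12.5% and 13.6% of all genes. Unadjusted limma p was under 0.05 for 29. By edgeR and by DESeq2 26 were higher and 1 lower. They hold 23 ribosomal protein genes, of which 20 rose, and 13 other genes, of which 7 rose. Rpl37 and Rpl13a, of the large ribosomal subunit, rose with log2 fold changes of 0.65 and 0.76 (limma adjusted p = 6.49e-04 and 9.00e-04), and Tpt1, the translationally controlled tumor protein gene, rose with 0.69 (adjusted p = 9.47e-04). The 27 became 7 without the second DMSO library, of which 6 were higher and 1 lower, 14 when C89 library 2 was dropped and 10 when C89 library 3 was. Of 18 terminal oligopyrimidine mRNAs outside the ribosome, 4 of which are also in the list of coding hosts, 8 rose and 1 fell (median 0.26). Vim, the intermediate filament gene vimentin, rose from 20992 ± 5342 to 43398 ± 6988, and the splicing factor gene Hnrnpa1 fell from 9706 ± 1499 to 5541 ± 428 (log2 fold changes 1.07 and -0.80; limma adjusted p = 9.38e-04 and 3.83e-04). Without the third C89 library 4 of the 18 were higher and 1 lower.

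Genes of the core snoRNA particle proteins were mostly higher. Of the 8 core proteins of box C/D and box H/ACA particles, 6 rose and 0 fell (median 0.37), against 12.5% and 13.6% of all genes. Nop56 and Dkc1 are also in the list of coding hosts, and Nop56 is among the 6. Nop58, a box C/D core protein, read 6021, 5241 and 5135 in DMSO and 8742, 9962 and 9321 in C89 libraries (limma log2 fold change 0.77 with SE 0.09, adjusted p = 1.46e-04). The groups were far apart. Nop10 of the H/ACA particle rose with 0.74 and Snu13, which binds the C/D guide first, with 0.50 (adjusted p = 0.00102 and 0.00275). Dkc1, the pseudouridine synthase dyskerin, had 0.16 (adjusted p = 0.29). Of the 8, 7 had an unadjusted p under 0.05, and edgeR and DESeq2 called 5 and 6, all higher. The 6 became 3 when DMSO library 2 was left out. Of 11 assembly factors 2 were called higher and 2 lower (median 0.03), a split that depended on the libraries used: it was 0 higher and 3 lower without the second DMSO library, and 4 higher and 1 lower without the first. Ruvbl1, an ATPase of the assembly machinery, rose with 0.43, while the RNA export adaptor gene Phax and the scaffold gene Nufip1 fell with -0.44 and -0.37 (adjusted p = 0.00564, 0.00523 and 0.0227). Ruvbl1 was not called when DMSO library 2 was dropped (adjusted p = 0.0682). That of Nufip1 was lost without any 1 library but the second DMSO library (0.064 to 0.0746), and with C89 libraries 2 and 3 summed (0.056). Without the third DMSO library or any 1 C89 library, 1 assembly factor was higher and 1 lower, and with scaling by total reads 1 was higher and 4 lower.

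**Figure D4:**
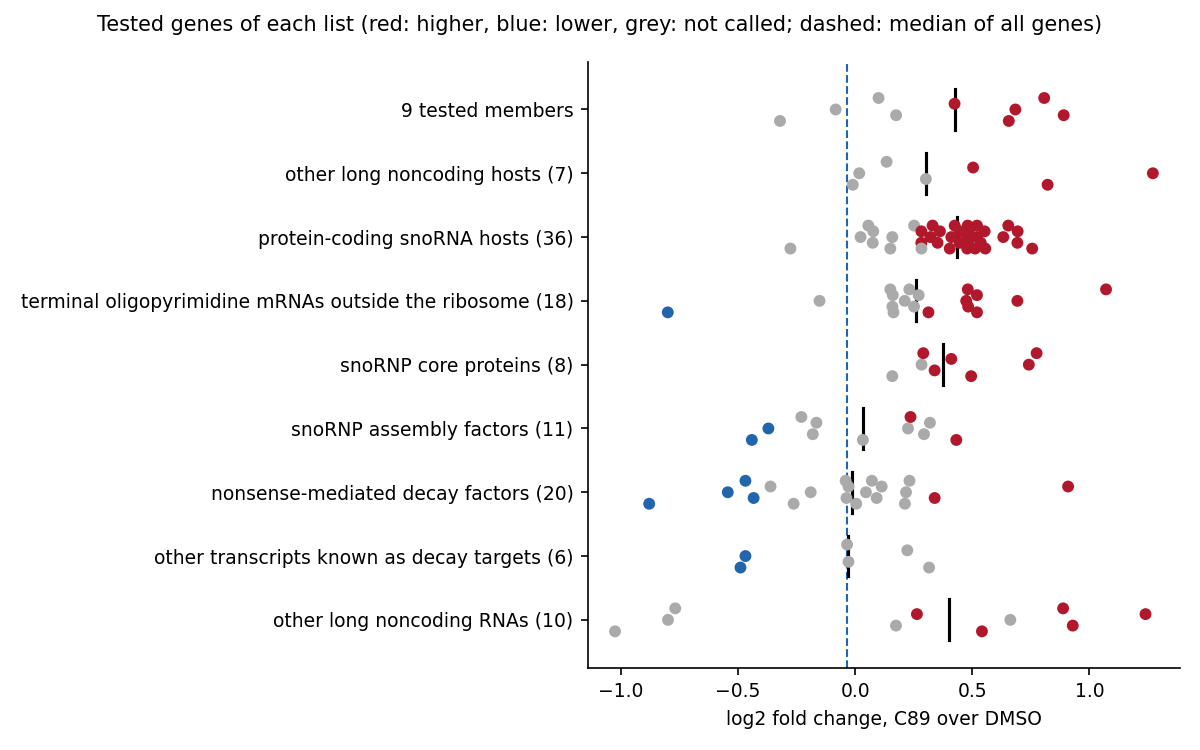
Log2 fold change, C89 over DMSO (horizontal axis), of each tested gene of the 9 hosts and 8 gene lists, with the number tested in brackets; black lines are list medians and the dashed line is the median of all genes, -0.03. The medians of the hosts, the coding hosts and the core snoRNA particle proteins are 0.42, 0.44 and 0.37, and that of decay factors is -0.01.

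Of 20 nonsense-mediated decay factors tested, 2 were called higher and 4 lower (median -0.01), a share near that of all genes, of which 12.5% were higher and 13.6% lower. Casc3, a component of the exon junction complex, read 1342, 1299.6 and 1509 in DMSO and 2649, 2514 and 2622 in C89 libraries (log2 fold change 0.91, limma adjusted p = 3.33e-05). The helicase gene Dhx34 fell from 306 ± 33.3 to 165 ± 14.9 (adjusted p = 7.49e-04), and Upf3a, a bridging factor between exon junction complex and decay machinery, fell with -0.54 (adjusted p = 0.00563). With scaling by total reads 1 factor was higher and 7 lower. Upf1, the central helicase, had -0.04 (adjusted p = 0.822). Of 6 other transcripts known as decay targets 0 rose and 2 fell, Tbl2 with -0.49 and the growth arrest gene Gadd45a with -0.47 (limma adjusted p = 0.00107 and 0.00903, the latter 0.0564 without the second DMSO library), while Atf4 had 0.22 (adjusted p = 0.0932). Of the 6, 1 was called higher by DESeq2 and 0 by edgeR, and 1 was higher by limma without the first C89 library. Unadjusted limma p was under 0.05 for 3 of the 6 and for 7076 of all 18954 genes.

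Long noncoding RNAs that carry no snoRNA were looked at for comparison. Of 10 tested, 5 rose and 0 fell by limma (median 0.40; 7 with an unadjusted p under 0.05), and edgeR and DESeq2 called 5 and 4, all higher. Malat1, a nuclear RNA of splicing speckles, rose from 6109 ± 1924 to 13946 ± 949 (SD, n = 3 each; log2 fold change 1.24, limma adjusted p = 4.48e-04), Pvt1 rose from 175 ± 13.0 to 324 ± 9.19 (adjusted p = 3.53e-04) and Tug1 rose with 0.54 (adjusted p = 0.00561). The 5 became 2 when DMSO library 2 or C89 library 3 was dropped, and 3 when C89 library 1 or 2 was. Tug1 was not called without DMSO library 2 (0.0603) or C89 library 3 (0.0531). Of the 10, 1 was called lower without the first DMSO library. With all libraries limma called 12.5% of all genes higher and 13.6% lower. The 9 hosts had 5 higher and 0 lower with a median of 0.42, near the values of these RNAs.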

How the data were processed

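A single table of 54232 genes was deposited. Per the labels' protocol, mRNA libraries were made from Trizol-extracted RNA and sequenced from both ends. The submitters' processing notes list HISAT2 and DESeq2. The sources used here do not give versions, build, annotation or counter. The deposited expression values are a normalized signal, in which the count of each gene was scaled by the size factor of its library: all 119020 values above 0 were whole reads within 0.01 read (100%), which recovered the reads. The deposited log2 fold changes and adjusted p-values are the authors' own. Left out were 1 gene with text in a cell and 7 unnamed columns.

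Because the deposited values were normalized, the planned test for counts gave way to its planned fallback: limma 3.58.1 (R 4.3.3) with a mean-variance trend on log2(value + 1), group as the only term, 18954 genes with a mean of at least 1, and Benjamini-Hochberg adjustment at 0.05. edgeR 4.0.16 (4652 genes called) and DESeq2 1.42.0 (4511) ran on the recovered reads. The procedure was tested on simulated data. List symbols were matched by Ensembl identifier, then by the table's symbol or an older name. The named genes were the 10 hosts, the 3 lowest p of each list, all neighbours overlapping a host or starting within 5 kb on the other strand, and the 3 genes most like the host of highest mean; Dkc1, Upf1 and the cell type markers given by name were added after values were seen. The hosts and lists were chosen with earlier results of these data known. Same-numbered libraries did not deviate together (r of -0.19, -0.18 and 0.02 over 10483 genes), so no pairing was used. Starts, neighbours and snoRNA loci come from RefSeq GRCm38.p6 and GENCODE. Intervals and floors cover counting error or library spread only. Figures were drawn with matplotlib 3.10.9.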

Additional observations from a re-analysis of the deposited data

How the results depend on the processing

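Over 17 alternatives, 125 of 153 fold changes of the 9 hosts kept their direction and their side of the threshold, 26 lost the call, 1 gained it and 1 changed sign (Snhg12, -0.0488 with scaling by total reads; so did Slc3a2, -0.0192). Under that scaling the median log2 fold change, over genes whose mean reached 50, went from -0.02 to -0.17 and left 1512 genes higher and 4095 lower, or 1 further long noncoding host and 3 other long noncoding RNAs called. Without the mean-variance trend 1921 genes and 0 hosts were called (3 of 9 at an unadjusted p under 0.05; adjusted p = 0.0542 for Snhg8 and 0.079 for Gas5), with 1 core particle protein, 0 assembly factors (5 of 11 unadjusted), 2 decay factors, 1 decay target, 1 further noncoding host, 5 coding hosts, 2 terminal oligopyrimidine mRNAs and 3 other long noncoding RNAs. With the second and the third C89 libraries summed 3274 genes, 3 hosts, 2 assembly factors, 1 further noncoding host and 3 other long noncoding RNAs were called. With no minimum mean 3 other long noncoding RNAs were called. The replicate block, made though the numbers do not pair the libraries, called 4092 genes, 4 hosts and 2 assembly factors. Leaving out 1 library each gave 2303 to 4711 genes, 1 to 5 hosts (1 without the second DMSO, 2 without the third C89, 3 without the third DMSO or the second C89 library), 3 to 7 core particle proteins, 2 to 5 assembly factors, 4 to 9 decay factors, 1 to 3 decay targets, 0 to 3 further noncoding hosts, 7 to 26 coding hosts, 5 to 10 terminal oligopyrimidine mRNAs and 2 to 5 other long noncoding RNAs. The share of all genes at an unadjusted p under 0.05 is not given here for these alternatives, so their unadjusted counts have no background. The cause of these losses was not tested. Depth limits the second C89 library most, where 1 read is worth 2.03 normalized counts.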
